A study of Mus musculus with 11 samples.

Results

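Wnt ligands, their receptors and the proteins that tune the signal at the cell surface were compared between the colons of germ-free and humanized mice. The genes were chosen by name, as the Wnt, frizzled (Fzd), R-spondin (Rspo), secreted frizzled-related (Sfrp, Frzb) and Dickkopf (Dkk) families together with Lrp5, Lrp6, Lgr4, Lgr6, Wif1, Porcn and Notum, and a gene was kept if at least 10 reads were counted in at least 5 of the 11 mice. Of 43346 genes in the table, 49 carried such a name and 36 met the minimum. Notum sat just inside it, with 10 or more reads in 5 mice, and Wnt3 just outside, with 10 or more in 2 mice. The other genes under the minimum were Wnt1, Wnt3a, Wnt7a, Wnt7b, Wnt8a, Wnt8b, Wnt9b, Wnt10a, Rspo4, Lgr6, Dkk1 and Dkk4, and 11 of the 13 did not reach 10 reads in any mouse.

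The study asked how a human gut microbiota changes gene expression in the mouse colon. Polyadenylated colon RNA came from 5 germ-free and 6 humanized animals, male Swiss Webster mice of 8 to 10 weeks. The humanized mice were raised germ-free and received 300 μL of a human stool suspension by gavage at 4 to 5 weeks of age, 4 to 5 weeks before the tissue was taken. All 6 were colonized from 1 donor, so the group stands for 1 human microbiota. Expression is given as RPKM, a read count scaled to gene length and library size, after TMM normalization of the libraries. The log2-fold change (LFC) is that of humanized over germ-free mice, with its standard error (SE), and a gene counts as changed at a false discovery rate (FDR) below 0.01 in edgeR's exact test over 19863 genes. Means are given ± SD, with n = 5 germ-free and n = 6 humanized mice.

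Wnt proteins are secreted lipid-modified ligands that bind a frizzled receptor and the co-receptor LRP5 or LRP6, which keeps β-catenin from being degraded and lets it switch on target genes with TCF/LEF factors. R-spondins bind LGR receptors and raise the amount of frizzled on the cell surface. Secreted frizzled-related proteins, some Dickkopf proteins, WIF1 and NOTUM hold the signal down. In the colon the pathway keeps the stem cells at the crypt base, and much of its ligand and R-spondin supply comes from mesenchymal cells beneath the epithelium.

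Of the 36 genes, 17 were expressed at a lower level in humanized mice (47.2%), 0 at a higher level, and 19 were not called. Among all genes tested, 10.1% were called lower and 9.20% higher. At an unadjusted p below 0.05, 24 of the 36 genes were lower and 2 (Wif1 and Lgr4) higher, while 19.0% of all genes tested were lower and 18.5% higher at that threshold. The quasi-likelihood test of edgeR called 10 of the 36 genes lower and 0 higher, beside 6.53% and 7.05% of all genes. DESeq2 called 16 lower and 0 higher, beside 11% of all genes in each direction (2182 and 2185 genes). The humanized mice lay entirely below the germ-free mice for 13 genes (36.1%), against 9.73% of all genes tested, and entirely above them for 0 genes, against 8.67%. The median LFC of the 36 genes was −0.86, beside 0.01 for all genes tested. Wnt2, Wnt16, Rspo2, Sfrp5 and Dkk2 met the read minimum through the germ-free mice alone, which ties their choice to the comparison. Without these 5, 14 of 31 genes were called lower and 11 lay entirely below.

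**Figure D1:**
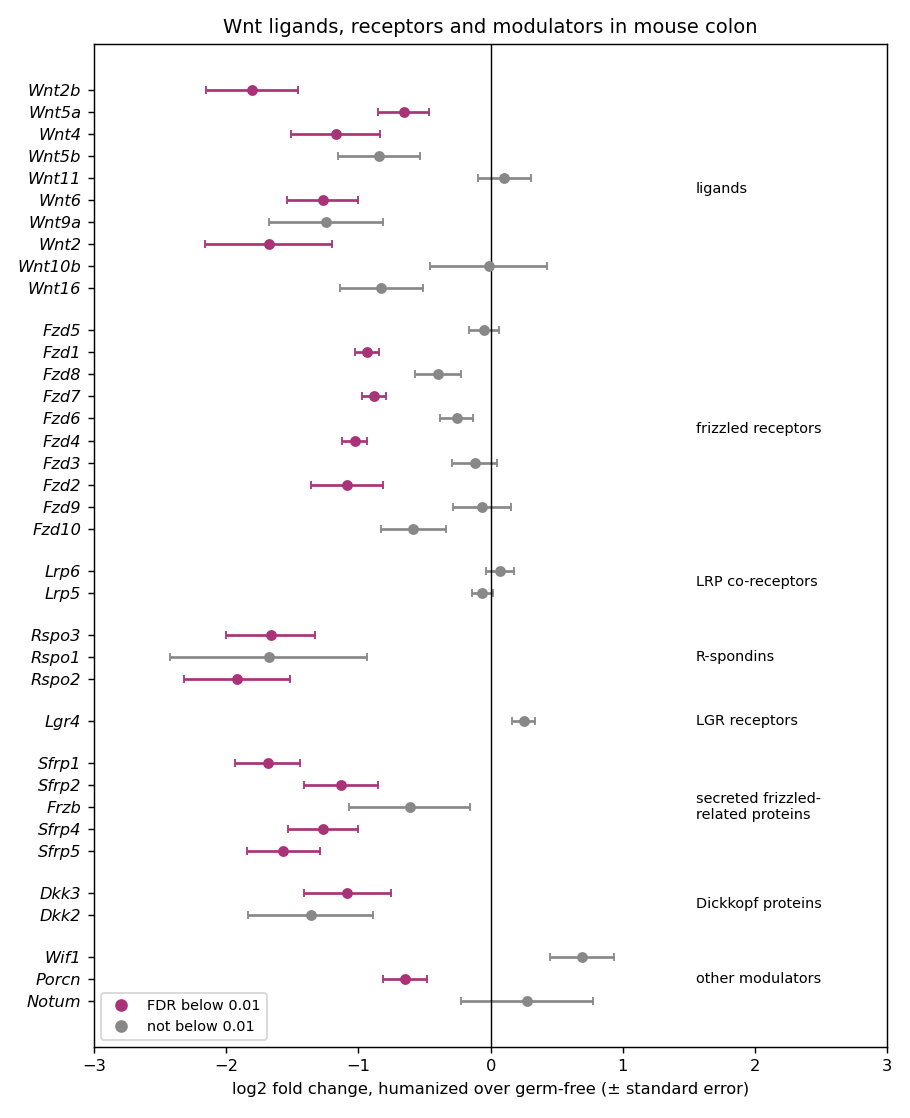
LFC of humanized over germ-free mice (x axis, log2 scale) for the 36 genes, ordered by role and by abundance within a role, with horizontal bars of ± 1 standard error and purple points for genes at FDR below 0.01. The 17 purple points lie between −1.92 and −0.65, while 5 gray points, Wif1, Notum, Lgr4, Wnt11 and Lrp6, lie to the right of 0.

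Libraries held 49097005 to 64148538 counted reads in germ-free mice and 39125290 to 54219854 in humanized mice, with TMM factors from 0.876 to 1.12. The tissue carried its epithelial markers in abundance: 11 markers (such as Epcam, Cdh1 and Vil1) summed to 4285 to 5874 RPKM in germ-free mice and 4965 to 6887 RPKM in humanized mice, with 3 called higher and 0 lower. Several marker lists of other cells of the colon wall were lower as well. Of 10 fibroblast markers (such as Pdgfra, Col1a1 and Dcn) 8 were lower, with a median LFC of −1.52 and a sum of 246 to 404 RPKM in germ-free against 27.2 to 200 RPKM in humanized mice. Of 9 smooth muscle markers (such as Actg2 and Des) 8 were lower, with a median LFC of −1.93 and sums of 282 to 858 against 40.0 to 300 RPKM. Enteric neuron markers were lower in 5 of 6, glial markers in 3 of 5, and blood endothelial markers in 0 of 6 at a median LFC of −0.76. Of 3 markers of interstitial cells of Cajal 1 was lower, of 3 mesothelial markers 0 were called, and of 7 leukocyte markers 2 were higher (Cd3e, LFC 1.15, and Cd79a, LFC 1.62) and 0 lower. None of the markers tested was at 0 reads in a mouse. In RNA of whole tissue, fewer cells of a type and less RNA per cell cannot be told apart, and the part of these markers in the results below was not tested.

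Of 10 expressed ligands, 5 were lower in humanized mice and 5 were not called. The summed ligand level was 18.0 ± 2.26 RPKM in germ-free and 7.99 ± 3.26 RPKM in humanized mice, and no humanized mouse, at 3.90 to 13.4 RPKM, reached the lowest germ-free mouse at 14.3 RPKM.

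Wnt2b (chr3:104944805-104961709 in mm10), a ligand of the β-catenin branch made by mesenchymal cells, had the highest mean level of the ligands in germ-free mice. It stood at 8.65, 4.31, 9.90, 9.05 and 8.88 RPKM in germ-free mice 1 to 5 and at 1.08 to 5.23 RPKM in humanized mice, with a median of 1.79. Germ-free mouse 2 lay below humanized mouse 3, so the groups overlapped in this pair alone. The means were 8.16 ± 2.203 and 2.33 ± 1.49 RPKM, a 3.499-fold difference (LFC −1.81, SE 0.35, FDR = 8.14e-06). Wnt2b made up 44.7 ± 8.26% of the summed ligand RPKM in germ-free and 28.0 ± 6.20% in humanized mice.

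Wnt5a (chr14:28504750-28527447), the main ligand of β-catenin-independent signaling, made up 34.8 ± 5.07% of the ligand RPKM in humanized and 24.0 ± 4.65% in germ-free mice. It exceeded Wnt2b in all humanized mice but mouse 3, and also in germ-free mouse 2. Its levels were 4.09, 4.57, 4.12, 4.22 and 4.14 RPKM in germ-free mice, and 1.62 to 3.81 RPKM with a median of 2.77 in humanized mice. The germ-free values were tight and lay above those of every humanized mouse. Its means were 4.23 ± 0.198 and 2.69 ± 0.869 RPKM (LFC −0.66, SE 0.19, FDR = 0.00601), but the call was lost with the quasi-likelihood test (FDR = 0.0232) and on leaving out any of the 5 germ-free mice or humanized mouse 1, 2 or 6, with FDR up to 0.0201. Wnt5a shares 358 exon bases with Gm2670 on the opposite strand, which held 413 reads beside 15435 for Wnt5a, and the library kit does not mark strand.

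Wnt4 (chr4:137277489-137299726), a ligand with roles in both branches, had 2.74, 2.12, 2.55, 1.89 and 1.46 RPKM in germ-free mice and 0.271 to 1.71 RPKM with a median of 0.978 in humanized mice. The highest humanized mouse exceeded the lowest germ-free mouse. Wnt4 had an LFC of −1.17 (SE 0.34, FDR = 0.00475), and this call too was lost with the quasi-likelihood test (FDR = 0.0210) and on leaving out germ-free mouse 1, 2 or 3 or humanized mouse 1, 2, 4 or 6 (FDR up to 0.0236).

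Wnt6 (chr1:74771892-74785322), a ligand of low abundance here, separated the groups more cleanly. Levels of Wnt6 were 0.637, 0.654, 0.687, 0.650 and 0.509 RPKM in germ-free mice and ran from 0.115 to 0.375 RPKM in humanized mice, with a median of 0.284. These values rest on 75 to 89 reads per germ-free mouse and 12 to 32 per humanized mouse. The groups did not overlap, and the LFC was −1.27 (SE 0.27, FDR = 7.12e-05).

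Wnt2 (chr6:17988940-18030585), the close relative of Wnt2b, was detected with 17 to 36 reads per germ-free mouse and 0 to 14 per humanized mouse. It reached 0.253, 0.229, 0.129, 0.227 and 0.209 RPKM in germ-free mice and had a median of 0.0664 RPKM and a maximum of 0.131 in humanized mice, with 0 reads in humanized mouse 1. The groups overlapped between humanized mouse 3 and germ-free mouse 3. The fitted LFC was −1.68 (SE 0.48, FDR = 0.000668), and the quasi-likelihood test did not call it (FDR = 0.0188).

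Wnt5b (chr6:119432531-119544347), a paralog of Wnt5a, was the most abundant ligand without a call. Germ-free mice had 1.44, 1.60, 1.79, 1.96 and 1.60 RPKM, and humanized mice 0.262 to 1.47 RPKM with a median of 0.994. Only humanized mouse 3 reached into the germ-free range. Wnt5b had an LFC of −0.84 (SE 0.31, FDR = 0.0373), and leaving out humanized mouse 3 or 5 brought the FDR to 0.00791 or 0.00658. The other 4 ligands without a call were Wnt9a, Wnt16, Wnt10b and Wnt11, with LFC values from −1.25 (Wnt9a) to 0.11 (Wnt11) and mean levels under 0.5 RPKM in both groups. Wnt9a passed the threshold when germ-free mouse 2, the lowest of its group at 0.0631 RPKM, was left out (LFC −1.50, FDR = 0.000358). Wnt11 changed sign, to −0.07 and −0.15, when libraries were scaled to total counts or to the epithelial markers.

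**Figure D2:**
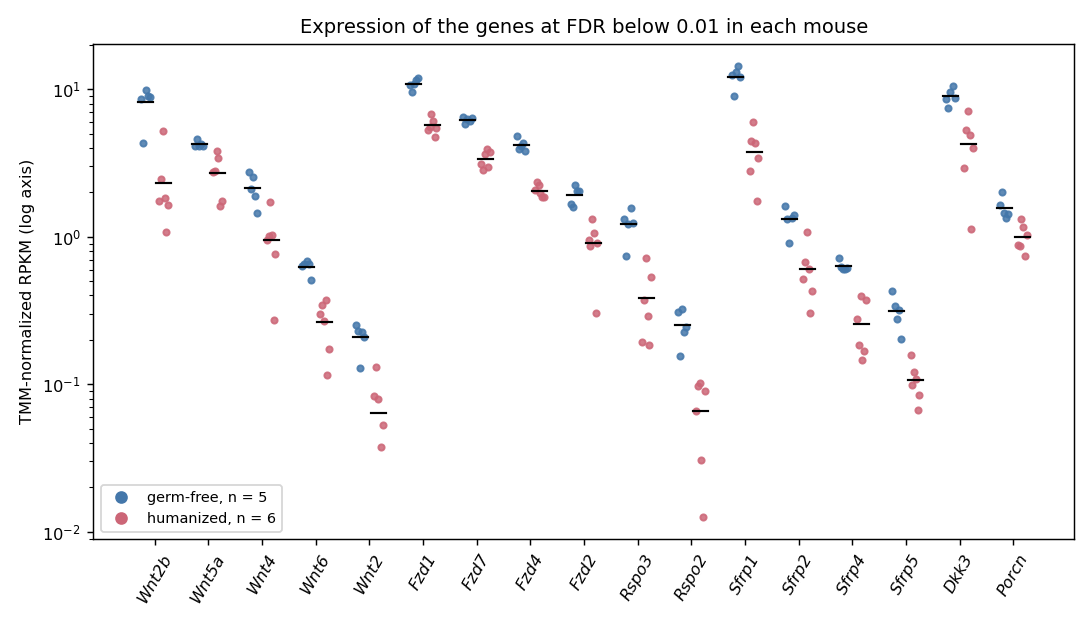
TMM-normalized RPKM (y axis, log scale) of the 17 genes at FDR below 0.01 in each germ-free (blue, n = 5) and humanized mouse (red, n = 6), with black lines at the group means. Fzd1, Fzd7 and Fzd4 form tight groups that lie apart, while humanized mice spread widely for Wnt2b and Dkk3. Humanized mouse 1, with 0 reads of Wnt2, cannot be drawn on the log axis.

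The frizzled receptors bind the ligands, and all 10 of them were expressed. Of these, 4 were lower in humanized mice and 6 were not called, and for all 4 the humanized mice lay below the germ-free mice. The summed level was 70.3 ± 2.13 RPKM in germ-free and 55.4 ± 6.72 RPKM in humanized mice, and the largest share of it belonged to Fzd5, which was not called. The 3 lower receptors with the most precise calls, and Fzd5 as the most abundant receptor without a call, were chosen for a look at their promoters. The 120 bases before the RefSeq start of each are shown here (GRCm38.p6, the mm10 build). They are written 5′ to 3′ on the strand of the gene, and capitals mark a GC box, GGGCGG or its reverse complement CCGCCC.
Fzd1, chr5:4758217-4758336, minus strand: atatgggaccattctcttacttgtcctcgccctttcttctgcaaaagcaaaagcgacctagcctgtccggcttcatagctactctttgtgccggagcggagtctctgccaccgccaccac
Fzd7, chr1:59482027-59482146, plus strand: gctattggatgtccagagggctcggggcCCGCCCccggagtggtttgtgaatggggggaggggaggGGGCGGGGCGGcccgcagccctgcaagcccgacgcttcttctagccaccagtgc
Fzd4, chr7:89404246-89404365, plus strand: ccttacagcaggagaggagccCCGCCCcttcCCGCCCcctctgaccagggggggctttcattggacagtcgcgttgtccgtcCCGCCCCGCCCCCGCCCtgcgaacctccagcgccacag
Fzd5, chr1:64737751-64737870, minus strand: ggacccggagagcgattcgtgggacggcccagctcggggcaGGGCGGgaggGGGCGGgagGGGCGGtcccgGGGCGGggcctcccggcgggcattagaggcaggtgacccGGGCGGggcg
The GC box stood in the windows of Fzd4, Fzd5 and Fzd7 and not in that of Fzd1. Of the 36 genes, 22 had an entry in the RefSeq promoter set used here. In the 250 bases before their starts, 16 of the 22 held a GC box on either strand (72.7%), against 35.4% of 27025 genes, and the median GC content of their windows was 65.2% against 52.4%.

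Fzd1 (chr5:4753873-4758035) was the most abundant receptor that fell. It had 10.6, 9.51, 10.8, 11.5 and 11.9 RPKM in germ-free mice 1 to 5, and 4.76 to 6.85 RPKM with a median of 5.54 in humanized mice. Every humanized mouse lay below every germ-free mouse. The means of Fzd1 were 10.9 ± 0.921 and 5.68 ± 0.723 RPKM, a 1.91-fold difference (LFC −0.94, SE 0.09, FDR = 4.46e-17).

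Fzd7 (chr1:59482424-59486955), a receptor linked to intestinal stem cells, stood at 6.46, 5.83, 6.27, 6.05 and 6.35 RPKM in germ-free mice and at 2.82 to 3.91 RPKM with a median of 3.38 in humanized mice. The groups were far apart relative to their spread. The means of Fzd7 were 6.19 ± 0.252 and 3.36 ± 0.456 RPKM (LFC −0.88, SE 0.09, FDR = 1.28e-13).

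Fzd4 (chr7:89404366-89410110), which also serves the ligand norrin in blood vessels, had 4.81, 3.91, 4.14, 4.33 and 3.80 RPKM in germ-free mice and 1.85 to 2.35 RPKM with a median of 2.03 in humanized mice. It fell 2.04-fold, from 4.20 ± 0.401 to 2.06 ± 0.202 RPKM (LFC −1.03, SE 0.09, FDR = 2.38e-14). Fzd4 was as even among humanized mice as among germ-free mice, with coefficients of variation of 9.84% and 9.55%.

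Fzd2 (chr11:102604396-102608058), a receptor much like Fzd1 and Fzd7 in sequence, had 1.66, 1.60, 2.25, 2.03 and 2.04 RPKM in germ-free mice and 0.305 to 1.33 RPKM with a median of 0.927 in humanized mice. The groups lay apart, but humanized mouse 5 was far below the rest of its group. Fzd2 had an LFC of −1.09 (SE 0.27, FDR = 0.00133), with an FDR of 0.0110 in the quasi-likelihood test.

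Fzd5 (chr1:64730558-64737751), the receptor known for its role in Paneth cell maturation, supplied 47.8 ± 1.91% of the frizzled RPKM in germ-free and 58.3 ± 4.77% in humanized mice. It stood at 32.6, 33.6, 33.8, 31.9 and 36.3 RPKM in germ-free mice and at 26.9 to 45.1 RPKM with a median of 31.2 in humanized mice. The germ-free values lay inside the humanized range, and the highest value was that of humanized mouse 5. The means of Fzd5 were 33.6 ± 1.68 and 32.5 ± 6.50 RPKM (LFC −0.05, SE 0.11, FDR = 0.811). Scaling to the epithelial markers gave an LFC of −0.33 and a call (FDR = 0.00674). An antisense gene, RP24-388P13.2, shares 1233 exon bases with Fzd5 and held 19949 reads beside 129680 for Fzd5, and reads of the pair cannot be told apart without strand. The other 5 receptors without a call were Fzd3, Fzd6, Fzd8, Fzd9 and Fzd10, with LFC values from −0.58 (Fzd10) to −0.06 (Fzd9). Fzd8 was the most abundant of them, at 6.46 ± 1.03 and 4.90 ± 1.28 RPKM (LFC −0.40, FDR = 0.0900), and passed the threshold without humanized mouse 5 (FDR = 0.00745).

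Neither of the co-receptors LRP5 and LRP6, which β-catenin signaling needs beside a frizzled, was called. Lrp6 (chr6:134446476-134566965) had 25.8, 21.8, 23.0, 24.2 and 21.7 RPKM in germ-free mice and 20.1 to 32.3 RPKM with a median of 23.5 in humanized mice. Its germ-free values lay inside the humanized range, and the LFC was 0.07 (SE 0.11, FDR = 0.694). Lrp5 stood at 9.14 ± 0.753 and 8.76 ± 0.946 RPKM (LFC −0.06, SE 0.08, FDR = 0.681). Under scaling to total counts and to the epithelial markers Lrp6 took the other sign, with LFC values of −0.12 and −0.22.

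R-spondins, the amplifiers of the signal, were scarce, and 2 of the 3 expressed genes were lower in humanized mice. The sum of Rspo1, Rspo2 and Rspo3 was 1.75 ± 0.570 RPKM in germ-free and 0.535 ± 0.280 RPKM in humanized mice, and the groups overlapped between germ-free mouse 2 at 0.917 RPKM and humanized mouse 3 at 1.04 RPKM. Rspo3 (chr10:29453109-29535867), the main R-spondin of the crypt niche, had 1.32, 0.742, 1.22, 1.57 and 1.25 RPKM in germ-free mice and 0.185 to 0.723 RPKM with a median of 0.331 in humanized mice. The lowest germ-free mouse stayed just above the highest humanized mouse. Rspo3 had an LFC of −1.66 (SE 0.34, FDR = 4.36e-05). Rspo2 (chr15:43020811-43170818) had 0.310, 0.155, 0.324, 0.226 and 0.245 RPKM in germ-free mice and 0.0127 to 0.102 RPKM with a median of 0.0778 in humanized mice, from 27 to 65 and from 2 to 16 reads. Its groups lay apart and its LFC of −1.92 (SE 0.40, FDR = 1.52e-05) was the lowest of the 36 genes. Rspo1 (chr4:124986430-125009099) was erratic in germ-free mice, at 0.196, 0.0197, 0.141, 0.727 and 0.317 RPKM, with 0.0206 to 0.218 RPKM and a median of 0.0559 in humanized mice. The groups overlapped, and the LFC of −1.68 carried an SE of 0.74 (FDR = 0.0784), so Rspo1 was not called.

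Lgr4 (chr2:109917647-110014257), the R-spondin receptor of the wider crypt epithelium, went the other way without a call. It had 25.2, 24.8, 22.9, 24.1 and 23.0 RPKM in germ-free mice and 24.2 to 36.0 RPKM with a median of 27.1 in humanized mice. Humanized mouse 3 lay within the germ-free range and the other 5 above it. Lgr4 had means of 24.0 ± 1.02 and 28.5 ± 4.12 RPKM (LFC 0.25, SE 0.09, FDR = 0.0451), and its LFC was 0.06 with total-count scaling and −0.03 with scaling to the epithelial markers.

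**Figure D3:**
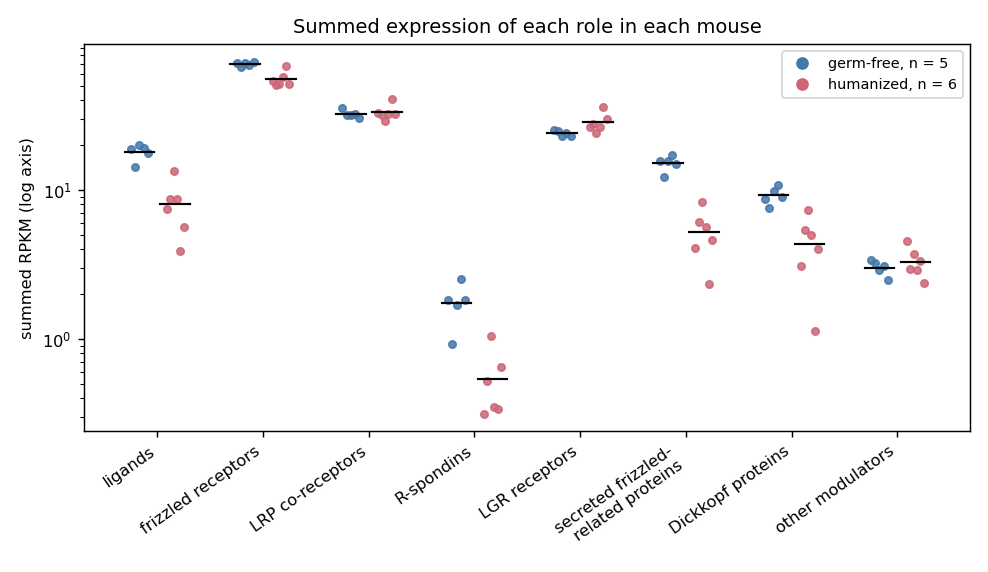
Summed RPKM (y axis, log scale) of the genes of each role in each germ-free (blue, n = 5) and humanized mouse (red, n = 6), with black lines at the group means. The humanized mean is 0.445 times the germ-free mean for ligands, 0.306 for R-spondins, whose groups overlap, 0.343 for secreted frizzled-related proteins and 0.470 for Dickkopf proteins, and 1.03 for LRP co-receptors.

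Secreted frizzled-related proteins bind Wnt ligands outside the cell and were lower in 4 of 5 cases, with a summed level of 15.1 ± 1.84 RPKM in germ-free and 5.19 ± 2.04 RPKM in humanized mice. Sfrp1 (chr8:23411502-23449632) alone supplied 80.2 ± 4.02% and 73.0 ± 2.32% of it. Sfrp1 stood at 12.5, 9.002, 13.2, 14.3 and 12.03 RPKM in germ-free mice and at 1.75 to 5.98 RPKM with a median of 3.85 in humanized mice. The groups lay well apart, by 3.22-fold in the mean (12.2 ± 1.97 and 3.78 ± 1.47 RPKM, LFC −1.69, SE 0.24, FDR = 1.14e-09). Sfrp1 was, with Fzd1, Fzd4 and Fzd7, 1 of 4 genes that kept its call under every alternative test, scaling, filter and left-out mouse that was run. The alternatives included a block of replicate number, the only one under which Wnt2b, Wnt6, Rspo2, Rspo3, Sfrp4 and Sfrp5 lost their calls. Of the 4 genes that kept every call, Fzd1 and Fzd7 had an absolute LFC below 1.

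Sfrp2 (chr3:83766321-83774316) had 1.61, 1.32, 0.905, 1.35 and 1.41 RPKM in germ-free mice and 0.303 to 1.08 RPKM with a median of 0.564 in humanized mice. Humanized mouse 3 exceeded germ-free mouse 3, the lowest of its group, and the LFC of Sfrp2 was −1.13 (SE 0.28, FDR = 0.00129; 0.0103 in the quasi-likelihood test). It shares 347 exon bases with antisense Gm26771, which held 249 reads beside 1207 for Sfrp2. Sfrp4 (chr13:19623175-19632821) had 0.714, 0.620, 0.604, 0.602 and 0.611 RPKM in germ-free mice and 0.146 to 0.396 RPKM with a median of 0.232 in humanized mice. Germ-free mice were nearly alike in Sfrp4 and lay above all humanized mice (LFC −1.27, SE 0.27, FDR = 4.64e-05). Sfrp5 (chr19:42197971-42202252) had 0.426, 0.342, 0.279, 0.320 and 0.203 RPKM in germ-free mice and 0.0665 to 0.158 RPKM with a median of 0.104 in humanized mice, from 27 to 51 and from 6 to 11 reads. Its groups lay apart (LFC −1.57, SE 0.28, FDR = 9.41e-06). Frzb (chr2:80411970-80447625), also known as Sfrp3, had 0.470, 0.885, 0.655, 0.648 and 0.716 RPKM in germ-free mice and 0.0520 to 0.776 RPKM with a median of 0.418 in humanized mice. The groups overlapped, and Frzb was not called (LFC −0.61, SE 0.46, FDR = 0.358).

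Dickkopf proteins were represented by Dkk3 and Dkk2, while Dkk1 and Dkk4, classical LRP5 and LRP6 antagonists, had at most 2 reads in any mouse. Dkk3 (chr7:112116019-112159057), a divergent family member, had 8.59, 7.42, 9.60, 10.5 and 8.74 RPKM in germ-free mice and 1.12 to 7.17 RPKM with a median of 4.44 in humanized mice. The groups lay apart by a narrow margin between humanized mouse 3 and germ-free mouse 2. Of the summed Dickkopf RPKM, Dkk3 made up 97.7 ± 0.628% in germ-free and 98.0 ± 1.48% in humanized mice. The means of Dkk3 were 8.96 ± 1.14 and 4.23 ± 2.08 RPKM (LFC −1.08, SE 0.33, FDR = 0.00667), and the call was lost with the quasi-likelihood test (FDR = 0.0270), with DESeq2 (FDR = 0.0171) and on leaving out germ-free mouse 1, 3, 4 or 5 or humanized mouse 1, 4 or 6 (FDR up to 0.0260). Dkk2 (chr3:132085292-132180293) had 0.137, 0.135, 0.310, 0.265 and 0.229 RPKM in germ-free mice and 0.0114 to 0.147 RPKM with a median of 0.0870 in humanized mice. Humanized mouse 1 overlapped the germ-free group, and Dkk2 was not called (LFC −1.36, SE 0.47, FDR = 0.0189), but passed without this mouse (FDR = 0.00919).

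The remaining genes act on the ligand itself. Porcn (chrX:8193848-8206525), the acyltransferase that attaches the lipid to Wnt proteins, had 1.64, 2.01, 1.44, 1.35 and 1.42 RPKM in germ-free mice and 0.744 to 1.33 RPKM with a median of 0.952 in humanized mice. The groups came close without overlapping (LFC −0.65, SE 0.17, FDR = 0.00696), and the call was lost with the quasi-likelihood test (FDR = 0.0136), without a low-count filter (FDR = 0.0130) and on leaving out germ-free mouse 1, 2, 3 or 5 or humanized mouse 1, 2, 5 or 6 (FDR up to 0.0383). Wif1 (chr10:121033960-121100650), a secreted inhibitor that binds Wnt ligands, had 1.69, 1.14, 1.42, 1.64 and 0.937 RPKM in germ-free mice and 1.26 to 3.501 RPKM with a median of 2.14 in humanized mice. All humanized mice but mouse 6 lay above the germ-free range. Wif1 had the highest LFC of the 36 genes, 0.69 (SE 0.24, FDR = 0.0391), and passed the threshold without humanized mouse 6 (LFC 0.80, FDR = 0.00728). With scaling to the epithelial markers its LFC was 0.40 (FDR = 0.298). Notum, the deacylase that inactivates Wnt proteins, stood at 0.0778 ± 0.0445 and 0.0949 ± 0.0578 RPKM (LFC 0.27, SE 0.50, FDR = 0.756), from 3 to 22 reads per mouse. It shares 708 exon bases with Notumos and 210 with Myadml2os on the opposite strand, which held 39 and 41 reads beside 118 for Notum.

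The spread among humanized mice was itself uneven. Over the 36 genes, the median coefficient of variation was 18.2% among germ-free and 36.3% among humanized mice, beside 10.4% and 16.5% over all genes tested. It was larger in humanized mice for 33 of the 36, a count that was not made over all genes. Some of the 36 had few reads, such as Wnt2 with 0 to 14 per humanized mouse, and the part of read depth in this spread was not tested. Among the 17 genes called, humanized mouse 5 was the lowest of its group in 13 and humanized mouse 3 the highest in 13. The same counts were not made over all genes tested. The median log2 ratio of the 17 called genes to the germ-free mean was −2.03 in mouse 5, −0.64 in mouse 3 and −1.27 to −1.07 in the other 4. The fibroblast markers had the same extremes, with a mean log2 ratio of −3.55 in mouse 5 and −0.70 in mouse 3, and 11 of the 17 genes shared both. The same 2 mice were also the extremes of the blood endothelial markers (−3.02 and −0.26), the leukocyte markers (−0.65 and 1.402), the crypt-top and crypt-base fibroblast markers, the β-catenin cascade and the surface modulators. Other lists were lowest in mouse 5 but highest elsewhere: smooth muscle (−0.47) and enteric neurons (−1.37) in mouse 6, interstitial cells of Cajal in mouse 4, and crypt target genes in mouse 1. Glial markers were lowest in mouse 1 and highest in mouse 6, and mesothelial markers lowest in mouse 2 and highest in mouse 6. Fzd1, Fzd7 and Fzd4 varied over narrow ranges, with log2 ratios of −1.19 to −0.66, −1.13 to −0.66 and −1.17 to −0.83 among humanized mice. For Wnt2b the ratios ran from −2.84 to −0.58, for Sfrp1 from −2.77 to −1.01, for Fzd2 from −2.60 to −0.52 and for Dkk3 from −2.98 to −0.31. Within the humanized group Fzd5, Fzd8, Fzd10, Lrp6 and Lgr4 were highest in mouse 5, as were the epithelial markers, which had a mean log2 ratio of 0.43 in that mouse. Without humanized mouse 5, 18 of the 36 genes were called lower, beside 11.5% of all genes tested.

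**Figure D4:**
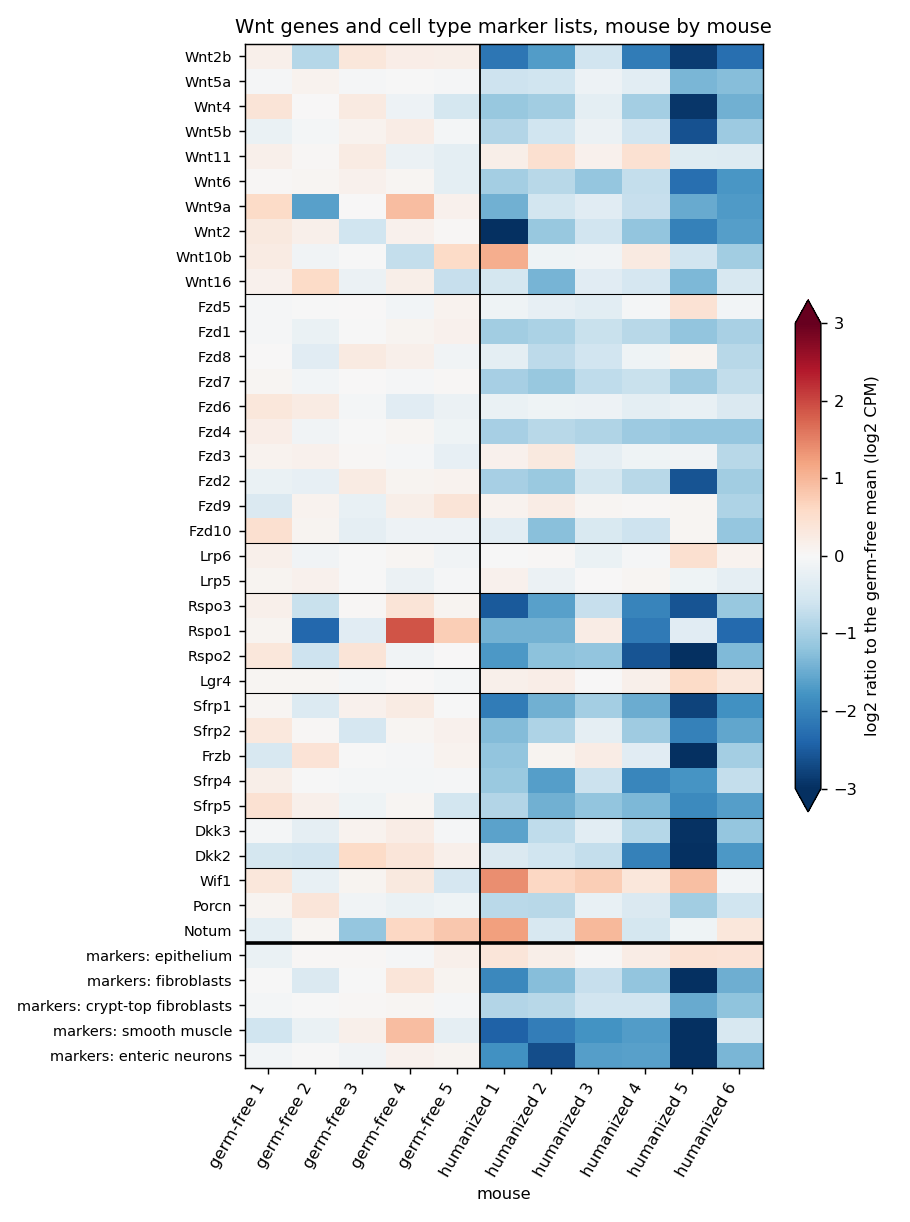
Log2 ratio of CPM to the germ-free mean (color, −3 to 3, with values beyond −3 drawn in the darkest blue) for the 36 genes (rows, by role) and the mean of 5 cell type marker lists (bottom rows) in each mouse (columns). Humanized mouse 5 has the darkest blue in many ligands, R-spondins, secreted frizzled-related and Dickkopf proteins and in the fibroblast list (−3.55). Fzd1, Fzd7 and Fzd4 have an even shade across the 6 humanized mice.

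Some fibroblasts lie directly next to the epithelium and are known sources of Wnt ligands and R-spondins. Of 6 markers of crypt-top subepithelial fibroblasts (such as Bmp5, Bmp7 and Foxl1) 4 were lower, with a median LFC of −0.87 and a sum of 82.5 to 101 RPKM in germ-free against 48.2 to 76.5 RPKM in humanized mice. Of 6 markers of crypt-base fibroblasts (such as Grem1 and Cd81) 2 were lower and 1 higher, with a median LFC of −1.004. The mean log2 ratio of the crypt-top list ran from −1.51 to −0.58 among humanized mice and that of the crypt-base list from −2.09 to −0.18.

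Beyond the ligands and receptors, 70 further genes of the pathway were tested from 3 fixed lists, and 24 were lower and 5 higher in humanized mice. In the intracellular β-catenin cascade of 30 genes, 4 were lower, 3 higher and 23 not called, with a median LFC of −0.01, and these shares were near the 10.1% lower and 9.20% higher of all genes tested. Its largest changes were in Pygo1 (LFC −1.73, SE 0.39, FDR = 0.000192), a partner of β-catenin in transcription, Apc2 (LFC −1.31, SE 0.32, FDR = 0.000880), a relative of the Apc scaffold, and Bcl9l (LFC −0.69, SE 0.10, FDR = 2.11e-08), which links β-catenin to Pygo proteins. Genes of secretion, alternative receptors and surface modulators were lower in 12 and higher in 2 of 25 tested, with a median LFC of −0.43, beside the same shares of all genes. The largest changes there were in the secreted antagonist Sostdc1 (LFC −2.58, SE 0.60, FDR = 0.000127), in Lypd6 (LFC −2.55, SE 0.31, FDR = 9.26e-14), which binds LRP6, and in the glypican Gpc3 (LFC −2.04, SE 0.33, FDR = 2.67e-07).

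Target genes of the pathway in the crypt were lower in 9 of 18 and higher in 0, with a median LFC of −0.36, beside 10.1% lower and 9.20% higher among all genes tested. This list also holds Notum, and it shares Rnf43 and Znrf3, the latter lower, with the list of surface modulators. Nkd1, an inhibitor induced by the pathway itself, fell from 2.12 ± 0.897 to 0.695 ± 0.310 RPKM (LFC −1.61, SE 0.36, FDR = 0.000214). Ascl2, a transcription factor of crypt stem cells, fell from 6.88 ± 1.30 to 3.24 ± 0.608 RPKM (LFC −1.09, SE 0.16, FDR = 1.45e-07). Zfp703, a zinc finger repressor, fell from 34.6 ± 2.18 to 20.1 ± 2.12 RPKM (LFC −0.79, SE 0.08, FDR = 8.30e-17). Humanized and germ-free mice did not overlap in any of the 3. The summed level of the 18 targets was 154 to 178 RPKM in germ-free and 111 to 135 RPKM in humanized mice.

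The letters of the TCF/LEF site, CTTTGAT on either strand, were looked for in the same 250-base windows. They stood before the starts of Wnt11 and Wnt5b, 2 of 22 genes (9.09%), against 3.72% of all genes, and the Wnt5b match lies before an internal start rather than its outermost one. The window of Wnt11 is shown because its match directly follows a GC box. Capitals mark both motifs, and the TCF/LEF letters begin 51 bases before the start.
Wnt11, chr7:98834992-98835111, plus strand: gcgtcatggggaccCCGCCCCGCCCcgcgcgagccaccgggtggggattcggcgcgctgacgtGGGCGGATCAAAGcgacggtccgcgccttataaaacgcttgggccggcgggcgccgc
Wnt11 itself was at 0.447 ± 0.0700 and 0.483 ± 0.126 RPKM (LFC 0.11, SE 0.20, FDR = 0.789).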

How the data were processed

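Colon RNA of 5 germ-free and 6 humanized mice was sequenced on 101 bp paired-end reads from a kit that does not mark strand. The authors aligned the reads to mm10 (Bowtie 2.2.3 within TopHat 2.1.0) and deposited raw read counts per gene from featureCounts (Subread 1.4.6-p5), with gene lengths whose computation is not stated. Counts were analysed here in R 4.3.3 with edgeR 4.0.16 and limma 3.58.1: filterByExpr at its defaults, TMM, and the exact test with Benjamini–Hochberg FDR below 0.01, as in the methods of the study. Standard errors come from the quasi-likelihood fit. Log2 ratios to germ-free mice use CPM with a prior count of 2. The steps were tested on simulated data. Alternatives included the quasi-likelihood test, DESeq2 1.42.0, other scalings, filters and thresholds, leaving out each mouse, and a replicate block. Mice were housed singly in isolators, and RNA batches are not given in the sources used here. The labels number the mice within each group. The genes and lists were chosen with earlier results of these data known. Called genes, and the most abundant uncalled gene of each role, are described in full, others by range. In the further lists, the 3 called genes with the largest absolute LFC are named. Gene starts and promoter sequences are from a RefSeq promoter set for GRCm38.p6, in which 14 genes had no entry. Shared exon bases were computed from GENCODE M21. Depth limits the genes with few reads most. The deposited length was 0.33, 0.42, 0.548 and 0.56 times the GENCODE M21 exon length for Fzd3, Sfrp4, Fzd4 and Fzd8. It was 0.65 to 0.878 times that length for Rspo2, Wnt10b, Lrp6, Rspo3, Wnt2b, Fzd6 and Wnt11. The RPKM levels of these genes relative to others, and the sums and shares that include them, are therefore uncertain. LFC values do not depend on length.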

Additional observations from a re-analysis of the deposited data

Results flagged for a closer look

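Within the germ-free or the humanized group, 7 of 72 sets of RPKM values held 1 mouse far from the rest by Dixon's criterion, which chance alone gives in about 1 of 20 sets. For Wnt2b, germ-free mouse 2 had 4.31 RPKM with the next mouse at 8.65, and humanized mouse 3 had 5.23 with the next at 2.46. For Wnt5a, germ-free mouse 2 had 4.57 and the next mouse 4.22. For Wnt6, germ-free mouse 5 had 0.509 and the next mouse 0.637. For Fzd5, humanized mouse 5 had 45.1 and the next mouse 32.3. For Fzd9, humanized mouse 6 had 0.400 and the next mouse 0.796. For Sfrp4, germ-free mouse 1 had 0.714 and the next mouse 0.620.

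Outside the 36 genes, Wnt3, which fell short of the read minimum, had 24 reads in humanized mouse 6 and 10 in humanized mouse 5, while no germ-free mouse had more than 8.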

How the results depend on the processing

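No LFC of a called gene reversed under the alternatives run for it, 20 for most genes and 19 for Wnt2, Rspo2 and Sfrp5, which could not be tested with at least 10 counts in every mouse. The count of 17 lower genes became 10 with the quasi-likelihood test, beside 6.53% of all genes. It lay between 13 and 18 with 1 mouse left out, beside 7.45% to 11.8% of all genes. It was 16 with DESeq2, beside 11%. It was 19 with total-count scaling and 20 with scaling to the epithelial markers, beside 18.2% and 19.1% of all genes called lower. These 2 scalings shift the median LFC of all genes by −0.19 and −0.27, and they turn 82.4% and 88.0% of all calls lower, against 52.2%. The count of lower genes was 13 when an absolute LFC above 1 was required, beside 6.41% of all genes lower and 2.04% higher. Over the 20 alternatives that keep the threshold, 13 of the 17 calls were lost at least once, most often those of Wnt5a, Wnt4, Dkk3 and Porcn. The calls of Wnt2b, Wnt6, Rspo2, Rspo3, Sfrp4 and Sfrp5 were lost only with the replicate number as a block, although these numbers belong to different animals. A call was gained at least once by 6 other genes. At FDR below 0.05 the count of lower genes was 21, beside 14.6% of all genes. The count of 0 higher genes became 2 at that threshold (Wif1 and Lgr4), beside 14% of all genes. It was 0 to 1 with 1 mouse left out, beside 6.69% to 10.6% of all genes, with Wif1 called without humanized mouse 6. Genes whose humanized mice all lay above the germ-free mice numbered 0 to 1 with 1 mouse left out, Lgr4 without humanized mouse 3 and Wif1 without humanized mouse 6. Those that lay below numbered 13 to 18. These counts without overlap were not made over all genes with a mouse left out.

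Of the 70 further pathway genes, the 24 lower became 12 when an absolute LFC above 1 was required, beside 6.41% of all genes. They numbered 22 to 25 with 1 mouse left out, beside 7.45% to 11.8%. The 5 higher became 3 with the quasi-likelihood test or at least 10 counts in every mouse, beside 7.05% and 9.02% of all genes. They became 1 with total-count scaling, scaling to the epithelial markers or an absolute LFC above 1, beside 3.89%, 2.61% and 2.04%. With 1 mouse left out they numbered 2 to 6, beside 6.69% to 10.6%. The cause was not tested.

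The labels number the mice in both groups, but the numbers belong to different animals. Same-numbered mice had correlations of −0.13 to 0.09 in their deviations, and 1 of 5 correlated best with its own number. With the replicate number as a block, the quasi-likelihood test called 4 genes lower (Fzd1, Fzd4, Fzd7 and Sfrp1), beside 2.55% of all genes in each direction, and, of the further genes, 9 lower and 1 higher. Depth limits the genes with few reads most, such as Wnt10b and Notum with at most 23 and 22 reads in any mouse, and Wnt2, Rspo2 and Sfrp5 with at most 14, 16 and 11 in any humanized mouse.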
